A study of Mus musculus with 2 samples.

Results

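Actin filaments and the myosin motors that pull on them are built from small gene families whose members are used by different cells. The genes described here encode the actins, α-actinins, myosin heavy and light chains, unconventional myosins, tropomyosins, troponins, calponins, transgelins and caldesmon. They were chosen by gene symbol, and 78 of the 19751 genes with a probe set of their own on the array matched, through 116 probe sets. By textbook use, 6 of them are smooth muscle isoforms, 26 striated muscle isoforms, 11 nonmuscle isoforms, 8 shared between muscle and nonmuscle cells, 24 unconventional myosins, and 3 were left unclassified. The cells were cultured fibroblastic reticular cells (FRCs), the fibroblasts that form the scaffold of lymph nodes, from untreated C57BL6/J mice of 4 to 6 weeks. Lymph node stromal cells had been grown for 7 to 10 days in medium with 10% fetal calf serum, and 2 replicate arrays were hybridised. The labels name no allele or agent and no separate animals or cultures for the replicates, so their spread may be of technical origin. The series has this 1 group, so no test was possible, and all statements describe levels and the difference between the arrays.

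In striated muscle, thick filaments of myosin slide along thin filaments of α-actin, and the troponin complex on tropomyosin makes this sliding depend on calcium. Smooth muscle and nonmuscle cells have no troponin switch, and there myosin is turned on by phosphorylation of its regulatory light chain. Fibroblasts in culture commonly form stress fibres, contractile bundles of nonmuscle actin and myosin, and when they acquire smooth muscle actin they are called myofibroblasts. FRCs use actomyosin contraction to set the tension of the lymph node network.

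Levels are log2 intensities, and a higher number means a brighter probe set. Levels of different genes cannot be ranked, because probes bind with different strength, so each gene was set against a background limit. The first limit is the 95th percentile of the 1035 probe sets for olfactory receptors, 7.17 on replicate 2 and 7.15 on replicate 1. The second and stricter one is the same percentile of 57 probe sets that belong to liver, retina, testis, pancreas and other tissue-restricted genes, 8.18 on replicate 2 and 8.08 on replicate 1. Of the 78 genes, 64 (82.1%) lay over the first limit on each of the arrays, against 67.3% of all named genes. The second limit was passed by 42 (53.8%), against 49.9% of all named genes. The sum hides a contrast between classes. All 6 smooth muscle isoforms passed the second limit, as did 9 of 11 nonmuscle and 7 of 8 shared isoforms. Among striated isoforms 8 of 26 passed it (30.8%), and among unconventional myosins 12 of 24. At the first limit the counts were 6 of 6, 11 of 11, 8 of 8, 18 of 26 and 19 of 24, in the same order of classes.

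The cells were checked against marker genes. Of 8 FRC identity genes, 7 passed the second limit on both arrays, the other being Cd34. Of the muscle markers, 0 of 10 skeletal and 2 of 8 cardiac genes passed the second limit and 8 and 4 the first, where 49.9% and 67.3% of all genes passed. The 2 cardiac genes over the second limit were Nppb (9.17 on replicate 2 and 9.73 on replicate 1) and Nkx2-5 (8.76 and 8.85). Of the markers of other cells, 4 of 9 pericyte and mural genes and 1 of 8 leukocyte genes passed the second limit. Of 8 endothelial genes 0 passed it, and of 6 epithelial genes 1 did. The genes that passed were Cspg4, Mcam, Notch3 and Des (pericyte and mural), Cd68 (leukocyte) and Krt8 (epithelial). The first limit was passed by 6, 4, 4 and 4 genes, in the same order of cells.

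**Figure D1:**
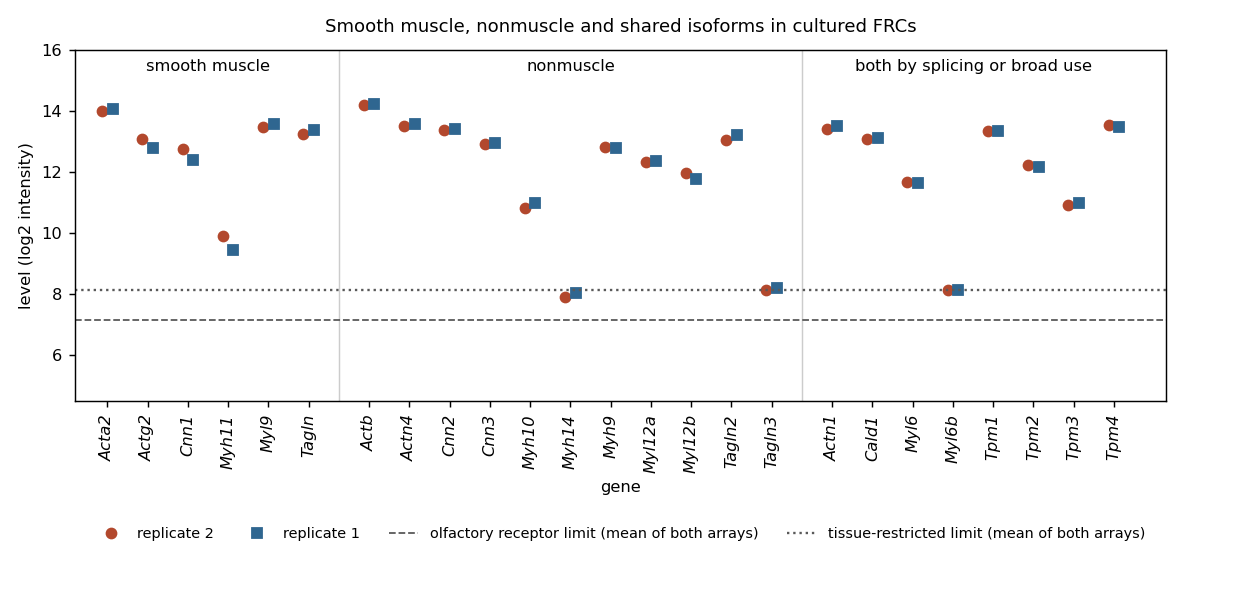
Level (log2 intensity) of each smooth muscle, nonmuscle and shared isoform on replicate 2 (circles) and replicate 1 (squares), with both background limits as the mean of the arrays (7.16 and 8.13). Except for Myh14, Tagln3 and Myl6b, which lie near the stricter limit, every gene lies at 9.45 or higher on both arrays.

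The smooth muscle isoforms all lay above background. Acta2, the smooth muscle α-actin that defines myofibroblasts, had levels of 14.01 on replicate 2 and 14.06 on replicate 1. Actg2, the γ-actin typical of gut and bladder smooth muscle, had 13.10 on replicate 2 and 12.79 on replicate 1. Both lay above every one of the olfactory receptor probe sets on both arrays. Tagln, which encodes the actin-binding protein SM22α, had 13.23 on replicate 2 and 13.37 on replicate 1. Cnn1, calponin of smooth muscle, which restrains actomyosin, had 12.77 on replicate 2 and 12.39 on replicate 1. Myl9, a regulatory light chain, had 13.49 on replicate 2 and 13.58 on replicate 1. All of these levels were far from both limits. Myh11, the smooth muscle myosin heavy chain and the most restricted marker of differentiated smooth muscle, had 9.91 on replicate 2 and 9.45 on replicate 1. Of the 1035 olfactory receptor probe sets, 0 on replicate 2 and 1 on replicate 1 reached the level of Myh11.

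Of the 11 nonmuscle isoforms, all but Myh14 and Tagln3 passed the second limit on both arrays. Actb, cytoplasmic β-actin, had 14.20 on replicate 2 and 14.22 on replicate 1. Cytoplasmic γ-actin, Actg1, had no probe set of its own and is not among the members. Of the nonmuscle myosin II heavy chains, Myh9 (myosin IIA) had 12.83 on replicate 2 and 12.78 on replicate 1. Myh10 (myosin IIB) had 10.83 on replicate 2 and 11.00 on replicate 1. Both lay above the second limit on both arrays, while Myh14 (myosin IIC), which had 7.92 on replicate 2 and 8.03 on replicate 1, passed the first limit and not the second. Myl12a and Myl12b, adjacent genes for regulatory light chains, had 12.33 and 11.97 on replicate 2 and 12.35 and 11.77 on replicate 1. The filament bundler Actn4 averaged 13.55 ± 0.03 (SD, n = 2 arrays), the calponins Cnn2 and Cnn3 averaged 13.40 ± 0.02 and 12.93 ± 0.02, and Tagln2 averaged 13.14 ± 0.11. Tagln3, a transgelin known from neurons, had 8.16 on replicate 2, just under the second limit, and 8.21 on replicate 1, just over it.

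The shared genes make muscle or nonmuscle proteins by alternative splicing or serve both kinds of cell, and a gene-level value cannot say which splice form was present. Of the tropomyosins, the rod proteins that lie along actin filaments, Tpm1 averaged 13.35 ± 0.01, Tpm2 12.21 ± 0.04 and Tpm4 13.51 ± 0.03. Tpm3 averaged 10.95 ± 0.05 over 3 probe sets that lay far apart. Caldesmon (Cald1), which binds actin and myosin and inhibits their interaction, averaged 13.10 ± 0.01, and α-actinin 1 (Actn1) 13.46 ± 0.06. The essential light chain Myl6, used by smooth and nonmuscle myosin II, averaged 11.65 ± 0.02 over 5 probe sets. Its neighbour Myl6b had 8.15 on replicate 2, below the second limit, and 8.13 on replicate 1, above it, and was the 1 shared gene that did not pass this limit on both arrays.

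**Figure D2:**
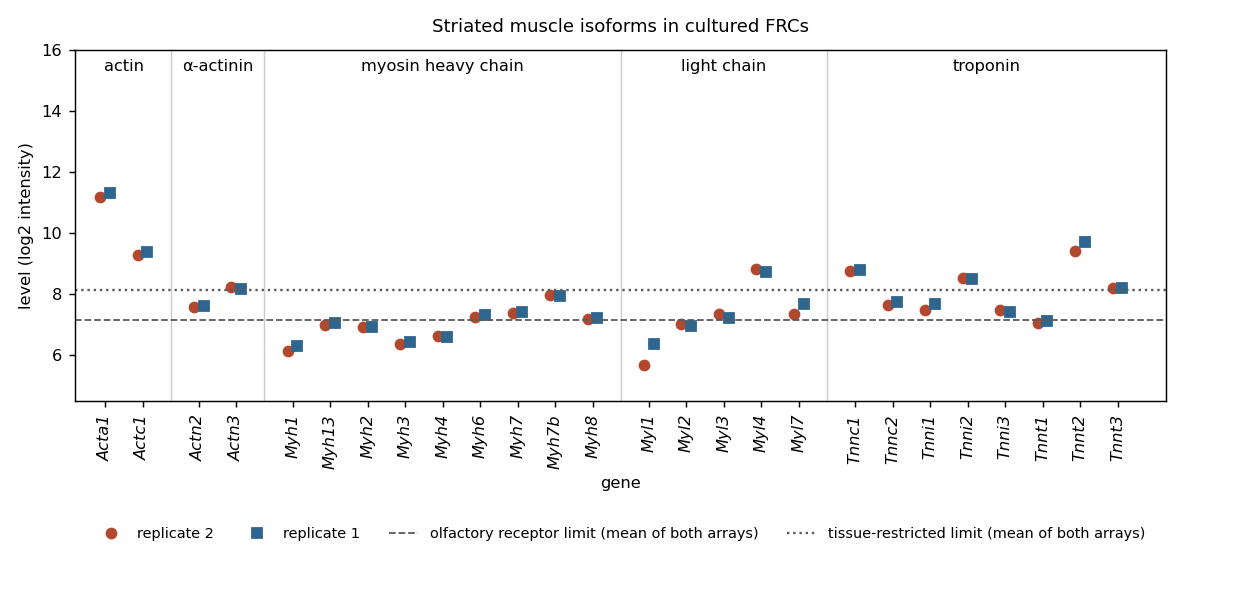
Level (log2 intensity) of the 26 striated muscle isoforms by family on replicate 2 (circles) and replicate 1 (squares), with both background limits. Both α-actins lie above the stricter limit, and all 9 heavy chains lie below it.

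Striated isoforms are given by component, beginning with the thin filament. Acta1, skeletal muscle α-actin, had 11.18 on replicate 2 and 11.31 on replicate 1. Actc1, cardiac α-actin, had 9.28 on replicate 2 and 9.38 on replicate 1. No more than 1 olfactory receptor probe set reached either gene on an array. The coding sequences of the actins are closely alike. The contribution of other actin transcripts to these signals, and to those of Acta2 and Actg2, was not tested.

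Of the troponins, 7 of 8 passed the first limit and 4 the second (4 of 8, against 49.9% of all genes). Tnnt2, cardiac troponin T, the subunit that anchors the complex to tropomyosin, had 9.41 on replicate 2 and 9.70 on replicate 1. Tnnc1, the calcium-binding subunit of cardiac and slow muscle, had 8.76 on replicate 2 and 8.81 on replicate 1. Tnni2, the inhibitory subunit of fast muscle, had 8.53 on replicate 2 and 8.49 on replicate 1. These subunits are not those of a single muscle type, since Tnnt2 is a cardiac and Tnni2 a fast muscle form. Tnnt3, the fast troponin T, had 8.20 on replicate 2 and 8.21 on replicate 1, just over the second limit on replicate 2. Cardiac troponin I (Tnni3) had 7.48 on replicate 2 and 7.41 on replicate 1, slow troponin I (Tnni1) 7.48 and 7.69, and fast troponin C (Tnnc2) 7.66 and 7.76, all between the limits. Slow troponin T (Tnnt1) lay below both, at 7.07 on replicate 2 and 7.12 on replicate 1.

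Troponin I and T genes sit in pairs in the mouse genome, and the pairs differed. Tnni2 and Tnnt3, with 1 protein-coding gene between them in the RefSeq gene table, both passed the second limit, Tnnt3 only just on replicate 2. Of Tnni1 and Tnnt2, likewise with 1 gene between them, Tnnt2 alone passed it. Neither of the adjacent genes Tnnt1 and Tnni3 did.

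The myosin heavy chains of striated muscle were at or near background. None of the 9 striated heavy chains passed the second limit, and 4 passed the first, where 67.3% of all genes did. Their levels ran between 6.15 and 7.99 on replicate 2 and between 6.30 and 7.95 on replicate 1. The cluster of 6 adjacent skeletal genes gave 6.37 for embryonic Myh3, 6.92 for Myh2, 6.15 for Myh1, 6.64 for Myh4, 7.20 for perinatal Myh8 and 7.01 for extraocular Myh13 on replicate 2. In this cluster only Myh8 passed the first limit on both arrays, at 7.20 against a limit of 7.17 on replicate 2. The adjacent cardiac genes Myh6 and Myh7 had 7.27 and 7.41 on replicate 2 and 7.34 and 7.41 on replicate 1, levels that 43 and 31 olfactory receptor probe sets reached on replicate 2. Myh7b, a relative of these, had 7.99 on replicate 2 and 7.95 on replicate 1.

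Of the striated light chains, 1 of 5 passed the second limit, against 49.9% of all genes. This was Myl4, the essential light chain of atrial and embryonic muscle, with 8.82 on replicate 2 and 8.73 on replicate 1. The ventricular chains Myl2 and Myl3 had 7.03 and 7.36 on replicate 2 and 6.96 and 7.22 on replicate 1, so Myl2 was below the first limit and Myl3 above it. The atrial regulatory chain Myl7 had 7.36 on replicate 2 and 7.70 on replicate 1, between the limits. The fast essential chain Myl1 was below both limits, at 5.69 on replicate 2 and 6.38 on replicate 1. Of the Z-disc α-actinins, Actn3 had 8.23 on replicate 2 and 8.19 on replicate 1 and passed the second limit, and Actn2, with 7.59 and 7.62, did not.

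Partner genes of these proteins, taken from lists of known function, are set beside the members. Of 36 genes of the sarcomere and its calcium handling, 16 (44.4%) passed the first limit, against 67.3% of all genes. The second limit was passed by 1, against 49.9% of all genes. That gene was Ldb3, a Z-disc protein, with 9.48 on replicate 2 and 9.72 on replicate 1. Of 17 muscle lineage transcription factors, 14 passed the first limit, against 67.3% of all genes. The second limit was passed by 6 (35.3%), against 49.9% of all genes. They were Mef2a (11.46 on replicate 2 and 11.49 on replicate 1), Mef2d (9.92 and 9.74), Gata6 (11.38 and 11.39), Hand2 (8.35 and 8.36), Six4 (8.84 and 9.19) and Nkx2-5 (8.76 and 8.85). All 6 are also known outside muscle. The skeletal determination factor Myod1 had 7.56 on replicate 2 and 7.83 on replicate 1 and passed the first limit only.

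For partners of smooth muscle and nonmuscle contraction, the share of all genes over the second limit, 49.9%, stands beside each count. Of 16 genes of the smooth muscle cytoskeleton, 13 passed the second limit, the exceptions being Synm, Pdlim3 and Pgm5. Of 16 genes that control myosin light chain phosphorylation, 13 did, the exceptions being the kinases Mylk3 (cardiac) and Mylk4 and the phosphatase inhibitor Ppp1r14c. Mylk, the smooth muscle light chain kinase, had 8.67 on replicate 2 and 8.74 on replicate 1. The kinase Mylk2 (skeletal) also passed, with 9.44 on replicate 2 and 9.29 on replicate 1. All 23 genes of actin filament turnover passed.

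Serum response factor (SRF) drives many actin and myosin genes, with the myocardin-related factors as actin-sensing partners. Of 12 genes for SRF and its cofactors, 11 passed the second limit, against 49.9% of all genes. Srf had 11.05 on replicate 2 and 11.36 on replicate 1, Mrtfa 11.58 and 11.82, and Mrtfb 10.03 and 9.96. The exception was Myocd, myocardin, the cofactor restricted to smooth and cardiac muscle, which had 7.50 on replicate 2 and 7.32 on replicate 1, between the limits.

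SRF binds a DNA element called the CArG box, whose general pattern, though not every single sequence, reads the same on both strands. The 250 bases before the annotated start were searched for it in the RefSeq promoters of build GRCm38.p6, which hold 67 of the 78 members. An exact CArG box stood in the promoters of 9 of these 67 genes (13.4%), against 439 of 27025 genes (1.62%) in the whole table. It stood before 5 of 23 striated, 1 of 3 smooth muscle, 1 of 10 nonmuscle and 1 of 8 shared genes and 1 of 20 unconventional myosins. Of members above the second limit on both arrays 6 of 34 had it, and of the others 3 of 33. The promoters of Actg2, Myh11, Tagln, Actb, Actn3, Tnni2, Tnnt3, Myo18b, Myo1d, Myo5b and Myo7b were not analysed here. Stretches from genes above the second limit and from genes not above it are printed 5′ to 3′ on the gene's strand, with the CArG box in capitals, because the same element stood before genes on both sides of the limit.
Acta1 (above; chr8:123894814-123894873, minus strand, box beginning 73 bases before the start): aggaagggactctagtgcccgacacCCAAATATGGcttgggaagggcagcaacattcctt
Actc1 (above; chr2:114052888-114052947, minus strand, 47 bases before): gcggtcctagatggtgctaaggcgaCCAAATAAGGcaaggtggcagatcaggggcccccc
Myl9 (above; chr2:156775278-156775337, plus strand, 161 bases before): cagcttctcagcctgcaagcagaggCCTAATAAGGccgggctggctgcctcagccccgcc
Cnn2 (above; chr10:79988519-79988578, plus strand, 56 bases before): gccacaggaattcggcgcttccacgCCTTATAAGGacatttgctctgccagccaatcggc
Myl6 (above; chr10:128493025-128493084, minus strand, 50 bases before): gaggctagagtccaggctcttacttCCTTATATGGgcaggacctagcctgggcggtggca
Myo1e (above; chr9:70207293-70207349, plus strand, 32 bases before): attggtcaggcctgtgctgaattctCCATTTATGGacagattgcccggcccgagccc
Myl3 (not above; chr9:110763568-110763627, plus strand, 85 bases before): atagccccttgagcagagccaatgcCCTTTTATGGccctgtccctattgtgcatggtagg
Myl7 (not above; chr11:5898809-5898868, minus strand, 61 bases before): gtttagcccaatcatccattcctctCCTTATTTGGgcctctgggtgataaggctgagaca
Myh4 (not above; chr11:67237683-67237742, plus strand, 104 bases before): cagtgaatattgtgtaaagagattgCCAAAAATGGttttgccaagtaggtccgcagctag

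The Acta2 promoter held no exact CArG box in this window. It held 2 matches that depart from the element by 1 letter, a looser search that 5368 of all 27025 genes (19.9%) and 21 of the 67 members (31.3%) also met. They begin 84 and 34 bases before the start and are shown in capitals, because Acta2 is the gene by which myofibroblasts are recognised.
Acta2 (above; chr19:34255374-34255482, minus strand): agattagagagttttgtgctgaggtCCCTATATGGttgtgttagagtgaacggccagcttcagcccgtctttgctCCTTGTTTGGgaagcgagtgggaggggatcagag
A match says that the letters are there, and binding was not measured.

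**Figure D3:**
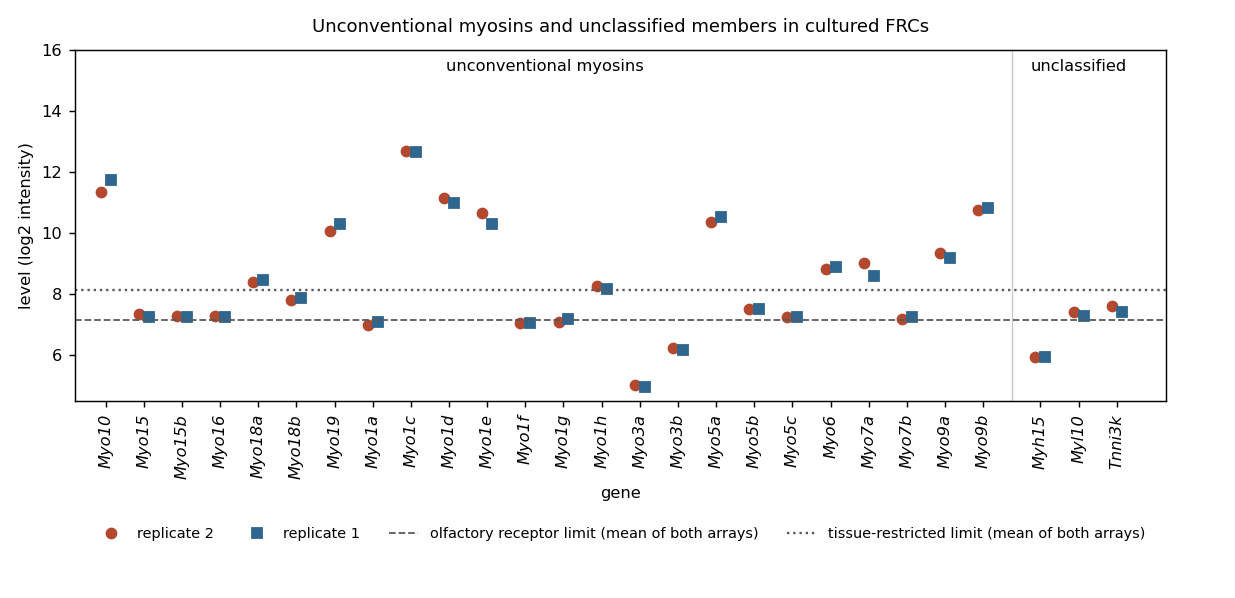
Level (log2 intensity) of the 24 unconventional myosins and the 3 unclassified members on replicate 2 (circles) and replicate 1 (squares), with both background limits. Of the myosins, 12 lie above the stricter limit on both arrays.

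Many unconventional myosins move membranes and cargo along actin, and most do not form bipolar filaments. Of 24 measured, 12 passed the second limit on both arrays, a share like the 49.9% of all genes. Myo1c, a class I motor that links membranes to actin, had 12.69 on replicate 2 and 12.66 on replicate 1. Its relatives Myo1d and Myo1e had 11.16 and 10.68 on replicate 2 and 10.99 and 10.31 on replicate 1. Myo10, the motor of filopodia, had 11.34 on replicate 2 and 11.76 on replicate 1. All 4 lay above every olfactory receptor probe set on both arrays. The cargo motor Myo5a averaged 10.46 ± 0.11, the mitochondrial motor Myo19 averaged 10.20 ± 0.16, and Myo6, which walks toward the pointed end of actin, averaged 8.86 ± 0.05. The class IX motors Myo9a and Myo9b averaged 9.27 ± 0.12 and 10.80 ± 0.04. The remaining members above the second limit were Myo7a, known from hair cells and retina (8.81 ± 0.31), Myo18a (8.45 ± 0.05) and Myo1h (8.23 ± 0.05).

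The other 12 did not pass the second limit on both arrays. Myo1f and Myo1g, used by leukocytes, had 7.07 and 7.11 on replicate 2 and 7.07 and 7.18 on replicate 1, and only Myo1g on replicate 1 passed the first limit. The brush border motors Myo1a and Myo7b had 6.99 and 7.20 on replicate 2 and 7.08 and 7.25 on replicate 1. Myo3a and Myo3b, motors of hair cells and photoreceptors, had 5.03 and 6.24 on replicate 2 and 4.98 and 6.18 on replicate 1. The level of Myo3a was reached by 653 of the 1035 olfactory receptor probe sets on replicate 2. Myo15 of hair cells, Myo15b, Myo16 and the epithelial cargo motors Myo5b and Myo5c passed the first limit and not the second, with means between 7.26 and 7.53. The adjacent genes Myo5a and Myo5c thus lay on different sides of the second limit.

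The unclassified members were Myh15, Myl10 and Tnni3k. The symbol of Tnni3k matches the troponin pattern, but the gene encodes a kinase that binds cardiac troponin I. Myh15, at 5.95 on replicate 2 and 5.96 on replicate 1, was below both limits. Myl10, with 7.42 and 7.29, and Tnni3k, with 7.62 and 7.41, lay between the limits.

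**Figure D4:**
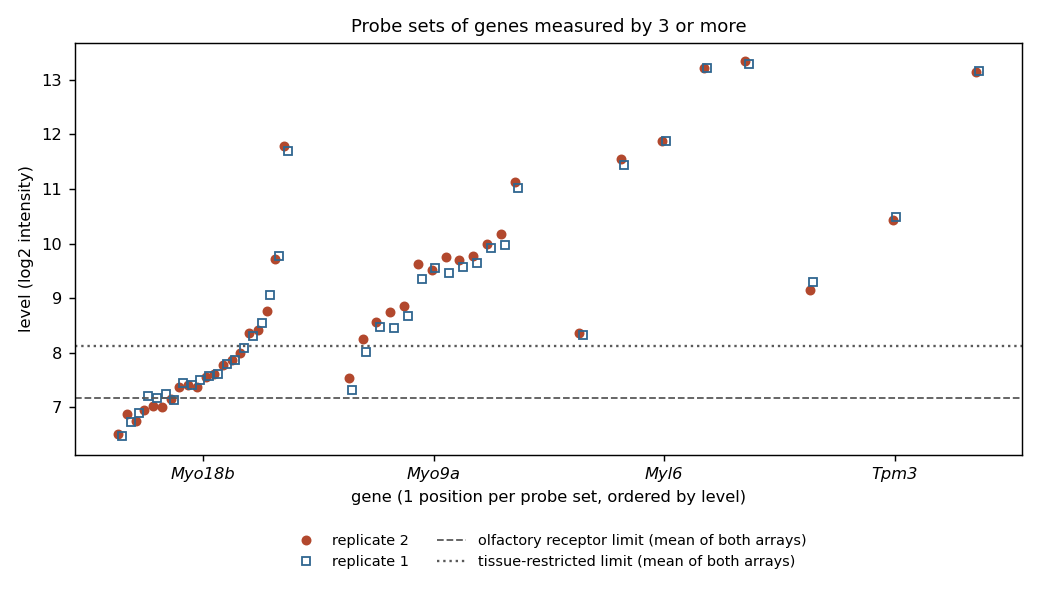
Level (log2 intensity) of each probe set of Myo18b (20), Myo9a (13), Myl6 (5) and Tpm3 (3) on replicate 2 (filled circles) and replicate 1 (open squares), ordered by level within a gene. Most Myo18b probe sets lie near the limits and a single one lies at 11.78 and 11.70, while 11 of 13 Myo9a probe sets lie above the stricter limit.

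Of the members, 5 had more than 1 probe set, and in 4 of them the probe sets lay far apart. Myo18b, a myosin of striated muscle, averaged 7.84 ± 0.04 over 20 probe sets. Of these, 13 passed the first limit on both arrays, 3 on a single array, 4 on none, and 5 passed the second limit. Their median was 7.49 on replicate 2 and 7.54 on replicate 1, but the brightest had 11.78 on replicate 2 and 11.70 on replicate 1. Myo9a, also spread over 13 probe sets, had a lowest level of 7.53, a median of 9.62 and a highest of 11.12 on replicate 2, and 7.32, 9.45 and 11.02 on replicate 1. For Myl6 the lowest was 8.36, the median 11.87 and the highest 13.34 on replicate 2, and 8.32, 11.88 and 13.29 on replicate 1. The 3 probe sets of Tpm3 had 13.15, 10.43 and 9.16 on replicate 2 and 13.16, 10.49 and 9.30 on replicate 1. In all 4 genes the spread among probe sets was alike on both arrays. The pair of Myo1d probe sets had 11.24 and 11.09 on replicate 2 and 11.05 and 10.94 on replicate 1.

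**Figure D5:**
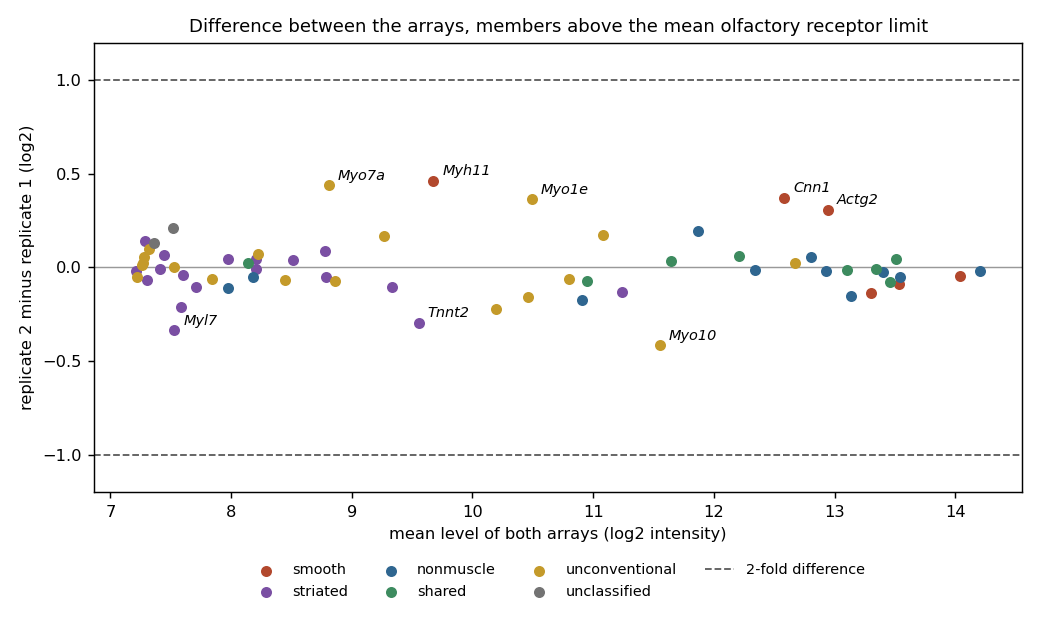
Difference between the arrays (replicate 2 minus replicate 1, log2) against mean level (log2 intensity) for the 64 members above the mean olfactory receptor limit, coloured by class. Every point lies between the dashed lines of a 2-fold difference, from -0.42 for Myo10 to 0.46 for Myh11.

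Differences between the arrays were small for the members, as for most genes. Over the 64 members whose mean level lay above the mean first limit of 7.16, 0 differed by 2-fold, against 1.41% of the 13577 genes that passed the same filter, and 0 differed by 1.5-fold, against 4.77%. At such low shares few of 64 genes would pass, so these counts do not set the members apart. The median size of the difference was 0.07 on the log2 scale for the members and 0.11 for all these genes. The median signed difference was -0.02 for the members, with 27 higher and 37 lower on replicate 2, and 0.0046 for all genes, of which 51.2% were higher on replicate 2.

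The smooth muscle class was the least even of the 5 named classes. Its median size of difference was 0.22, against 0.07 for striated, 0.05 for nonmuscle, 0.04 for shared genes and 0.07 for unconventional myosins. Myh11 was 1.38-fold, Cnn1 1.29-fold and Actg2 1.24-fold higher on replicate 2, while Acta2, Myl9 and Tagln were lower there by 0.05, 0.09 and 0.14 on the log2 scale. Of the 13577 genes, 7.33% differed by at least as much as Myh11, 10.5% as Cnn1 and 14.6% as Actg2. These 3 differences rest on 1 array per side and have no replicate check.

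Other lists also differed between the arrays. Of all genes above the filter, 51.2% were higher on replicate 2, and the median size of the difference was 0.11. Of the 6 pericyte and mural markers above the filter, 5 were higher on replicate 2, Rgs5 by 2.54 on the log2 scale (9.91 on replicate 2 and 7.37 on replicate 1) and desmin (Des) by 1.02 (10.11 and 9.09), and Mcam was lower. The summed intensity of the 9 markers was 10797 on replicate 2 and 9479 on replicate 1, most of it from Mcam, and without Mcam it was 4031 on replicate 2 and 2136 on replicate 1, with Abcc9, Higd1b and Angpt1 below the first limit on both arrays. All 8 FRC identity genes were higher on replicate 2, with a median of 0.13 on the log2 scale, near the median size over all genes. Of the 6 endothelial markers above the filter, 2 were higher and 4 lower, with a median size of 0.57. In the smooth muscle cytoskeleton list, which shares Des with the mural markers, 6 genes were higher and 8 lower on replicate 2, with a median of -0.04. There Mustn1 was higher by 1.83 (12.34 on replicate 2 and 10.51 on replicate 1), and Kcnmb1 was lower by 0.53 (10.86 on replicate 2 and 11.39 on replicate 1). The proliferation gene Mki67 had 9.45 on replicate 2 and 10.52 on replicate 1. The part of mural cells, of the other lists and of proliferation in the differences of Myh11, Cnn1 and Actg2 was not tested, and in such bulk samples fewer cells of a type and less RNA per cell cannot be told apart.

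Outside the smooth muscle class, the widest differences were those of Myo7a (1.36-fold higher on replicate 2), Myo1e (1.29-fold higher) and Myo10 (lower on replicate 2 by 0.42 on the log2 scale). Of the genes above the filter, 7.95% differed by at least as much as Myo7a and 8.87% as Myo10. In Myo9a, 12 of 13 probe sets were higher on replicate 2, with a median of 0.18 and a range between -0.03 and 0.30. Tnnt2 and Myl7 were lower on replicate 2 by 0.30 and 0.33. Among the 11 nonmuscle genes the range ran between -0.17 for Myh10 and 0.20 for Myl12b, and among the 8 shared genes between -0.08 for Actn1 and 0.06 for Tpm2. Below the filter, Myl1 was lower by 0.70 on replicate 2, with both arrays under the first limit.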

How the data were processed

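Both arrays were deposited as linear intensities, 1 for each probe set. Per the submitters' processing notes the authors used RMA (robust multi-array average; version not given in the sources used here), a method that corrects background, equalises the arrays' distributions and combines the probes of a set. It narrows differences where signal is low. Log2 of the deposited intensities was taken here. The platform annotation gave a single gene for 21354 of the 24679 probe sets, several for 1275 and none for 2050, and only the first kind was named. A gene's level is the mean log2 over its probe sets (19751 genes). All 78 members were found in the RefSeq gene table of GRCm38.p6, with no symbol changed.

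The members, classes and lists were chosen with earlier results of these data known. All members could be named; in other lists the genes on the smaller side of the second limit (up to 6) and those with a 2-fold difference were named. Cd34, Mcam, Abcc9, Higd1b, Angpt1, Kcnmb1, Myod1, Mylk, Mylk2, Srf, Mrtfa, Mrtfb and Mki67 were named after their values were seen. The same holds for Nppb, Cspg4, Notch3, Cd68 and Krt8. With 1 group of 2 arrays there is no significance test, and precision is limited by there being 2 arrays. Means are given ± SD. Counting of 2-fold differences was tested on simulated data. Python 3.11.15, numpy 2.4.6, pandas 2.3.3, statsmodels 0.14.6 and matplotlib 3.10.9 were used. The alternatives were other percentiles, the highest or lowest probe set, single arrays, quantile normalisation, a loess trend (span 0.3), other filters and a 1.5-fold threshold.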

Additional observations from a re-analysis of the deposited data

How the results depend on the processing

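Of 162 recomputed class counts and median differences, 160 stayed within 1.5 times the reported count or within the spread between the arrays (0.05 on the log2 scale). The exceptions both came from setting the olfactory receptor limit at the 99th percentile, under which 8 striated isoforms and 12 unconventional myosins passed, as many as under the tissue-restricted limit. That percentile also took the count of all members from 64 to 45, which lies within the 1.5-times rule. Some of the 162 values could not move, since smooth muscle, striated and nonmuscle isoforms had a single probe set each. The spread of 0.05 is larger than every reported median difference except that of the smooth muscle class, so a change of sign could still count as staying. Under the stricter filter the median of the unconventional myosins went from 0.01 to -0.02 and was counted so. Quantile normalisation could change little, since RMA had already equalised the arrays. With each array alone, 64 to 65 members passed the first limit and 42 to 44 the second. The count of 2-fold differences was 0 under every alternative run, the 1.5-fold threshold included. No paired analysis was possible because the series has 1 group. A cut at background depends on the probes chosen for it, and genes near a limit, such as Myh8, Tnnt3, Actn3, Tagln3, Myl6b and Myh14, could fall on either side. RMA's compression at low signal limits what can be said of differences among the striated isoforms.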

Other observations

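Of the probe sets annotated with several genes, 5 held a member symbol. In 4 of them Actb was paired with cytoplasmic γ-actin, Actg1, and their levels were 13.12, 13.59, 13.93 and 13.97 on replicate 2 and 13.20, 13.66, 13.95 and 14.01 on replicate 1. The fifth, shared by Tpm4 and Gm7809, had 13.66 on replicate 2 and 13.70 on replicate 1.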
